A study of Mus musculus with 2 samples.

Results

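The neutrophil-attracting CXC chemokines were followed across the cells of dystrophic muscle as 5 genes, the ligands Cxcl1, Cxcl2, Cxcl3 and Cxcl5 and their receptor Cxcr2, out of the 24984 gene symbols counted. They were taken by symbol, as a known gene family. Single cell RNA-seq had been run on hind limb muscle of mdx mice, a dystrophin-deficient model of Duchenne muscular dystrophy, in 1 library per genotype. Ctrl mice were Pax7CreERT2/R26YFP; Yy1+/+; mdx, and dKO mice were Pax7CreERT2/R26YFP; Yy1f/f; mdx, so that tamoxifen removed Yy1, a zinc finger transcription factor, in dKO cells that express Pax7, which in muscle are the muscle stem cells (MuSCs). Both groups carried the Cre, the YFP reporter and the mdx allele, both received tamoxifen on 5 days at 1.5 months of age, and muscle was taken 1 month later. Cells of 3 mice were pooled per library, and red cells were lysed before a sort for live cells.

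These chemokines carry a Glu-Leu-Arg motif ahead of the CXC cysteines and act on CXCR2, a G protein-coupled receptor that neutrophils use to leave the marrow and enter tissue. Their genes are induced within hours by IL-1, TNF and microbial products through NF-κB, and their short-lived transcripts are bound and removed by RNA-binding proteins such as tristetraprolin (Zfp36) and regnase-1 (Zc3h12a). Macrophages and stromal cells of injured muscle are known sources, while neutrophils make Cxcl2 themselves.

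The 4 ligand genes lie in a row on the plus strand of chromosome 5 within 147 kb (chr5:90759360-90905938, GRCm38, GENCODE M21 annotation, matched by symbol), while the receptor lies elsewhere. Cxcl5 spans chr5:90759360-90761624, Cxcl3 chr5:90786103-90789600, Cxcl1 chr5:90891241-90893115 and Cxcl2 chr5:90903871-90905938, and Ppbp, Pf4 and Cxcl15 sit among them. Cxcr2 spans chr1:74153989-74161246 on the plus strand. All 5 are annotated as protein coding. The promoter sequences of Cxcl1, Cxcl2 and Cxcl3 are shown because these ligands differ below in which cells carry them, while their start sites share an element. The 120 bases that end just before the earlier of the RefSeq and GENCODE starts are printed 5′ to 3′ from the plus strand (RefSeq sequence, GRCm38.p6), at chr5:90891121-90891240 for Cxcl1, chr5:90903751-90903870 for Cxcl2 and chr5:90785981-90786100 for Cxcl3. Capitals mark GGGAATTTCC, the only match to the NF-κB consensus that all 3 promoters share.
Cxcl1: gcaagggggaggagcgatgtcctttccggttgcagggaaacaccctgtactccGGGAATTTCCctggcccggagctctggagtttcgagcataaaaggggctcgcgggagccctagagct
Cxcl2: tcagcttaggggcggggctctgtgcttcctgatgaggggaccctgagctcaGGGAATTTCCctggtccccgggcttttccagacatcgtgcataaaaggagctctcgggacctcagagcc
Cxcl3: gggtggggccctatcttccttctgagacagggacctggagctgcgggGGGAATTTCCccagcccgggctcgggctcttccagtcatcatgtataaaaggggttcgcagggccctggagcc
The capital stretch begins 67 bases before the end of the window in Cxcl1, 69 in Cxcl2 and 73 in Cxcl3. The motif was searched on both strands (the other strand reads GGAAATTCCC) in windows of 300 bases, and 29 of 32851 mouse promoters (0.0883%) held it, while 2779 (8.46%) held some match to the consensus. The window of Cxcr2 had no match, and 4 of the 5 members had a promoter entry. A match is a description of letters, since no binding was measured here.

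Ligands were counted in 4335 Ctrl and 3329 dKO cells with at least 500 genes, and Cxcr2 in all 4527 and 3483 deposited cells, because 9 neutrophil-like cells of each library had fewer than 500 genes. Other genes named in neutrophil-like cells were also counted in all deposited cells unless stated. Levels are given as CPM, a gene's counts per 1000000 unique molecular identifiers (UMIs, which tag single captured RNA molecules) of the cell class. With 1 library per group there is no replicate check and no test, and intervals in parentheses are exact 95% intervals, Poisson for levels, binomial for shares of cells and conditional binomial for ratios, that cover counting error only. The libraries were alike in depth (45556596 and 33815155 UMIs, medians of 7697 and 7615 per cell) and shared 7 barcodes (0.155% of Ctrl and 0.201% of dKO cells). Yy1 stood at 170 CPM in Ctrl and 6.82 CPM in dKO MuSC-like cells, a ratio of 0.0402 (0.0161 to 0.0835), and at 126 and 134 CPM in FAP-like cells. Clusters were built without the 5 members and named as "like" a cell type from marker genes.

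Summed over whole libraries, Cxcl1 and Cxcl5 were higher in dKO and Cxcr2 was lower. Cxcl1 was counted at 44849 UMIs in Ctrl and 58280 in dKO, or 988 and 1729 CPM, a ratio of 1.75 (1.73 to 1.77). Cxcl5 stood at 154 and 310 CPM, a ratio of 2.02 (1.96 to 2.08), and Cxcl2 at 896 and 1195 CPM, a ratio of 1.33 (1.32 to 1.35). Cxcl3, the remaining ligand, stood at 82.3 and 85.7 CPM, a ratio of 1.04 with an interval that includes 1 (0.991 to 1.09). Cxcr2 was counted at 263 and 85 UMIs, or 5.77 (5.10 to 6.51) and 2.51 CPM (2.01 to 3.11), a ratio of 0.435 (0.337 to 0.558). These sums mix the level in a cell type with how many such cells each library held, so the levels within classes follow. The UMIs were held by few cells: 118 Ctrl and 147 dKO cells with the most UMIs held 50% of those of Cxcl1, and 20 and 25 cells held 50% of those of Cxcl5.

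Cxcl1, encoding a ligand made by stromal and endothelial cells, was chiefly a transcript of FAP-like cells, the fibro/adipogenic progenitors that form the connective tissue of muscle. The 1114 Ctrl FAP-like cells held 38057 UMIs (84.9% of the library's Cxcl1) and the 1190 dKO cells 54471 (93.5%). Ctrl FAP-like cells stood at 2259 CPM (2237 to 2282) and dKO FAP-like cells at 3089 CPM (3063 to 3115), a ratio of 1.37 (1.35 to 1.39). A Cxcl1 UMI was seen in 71% and 78.6% of FAP-like cells, and in 54.5% and 64.9% after each cell was thinned to 2000 UMIs (20 shallower cells left out per library), so the direction was the same at equal depth. In B cell-like cells, which should lack the transcript, 5.56% and 8.05% had a UMI (median depths 2338 and 2556 UMIs), or 5.05% and 4.23% when thinned. Of 10632 genes that reached 100 UMIs in FAP-like cells, 313 (2.94%) were at least 1.5-fold higher and 322 (3.03%) at least 1.5-fold lower in dKO, with a median log2 ratio of -0.05, and Cxcl1 was not past that fold.

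Next in order of Cxcl1 level in Ctrl came smooth muscle and pericyte-like cells, which wrap the vessels, with 1423 CPM (1361 to 1487) in Ctrl against 873 CPM (786 to 967) in dKO (ratio 0.614, 0.548 to 0.686). Here the CPM was lower in dKO, the opposite of FAP-like cells, and the difference lay in the cluster led by Kcnj8 and Colec11, where 47 Ctrl and 18 dKO cells stood at 5737 and 2001 CPM and 1 cell held 22.3% and 35% of the UMIs. The share of smooth muscle and pericyte-like cells with a Cxcl1 UMI went the other way, 56.9% and 62.3%, or 37.1% and 57.4% when thinned (9 and 7 cells left out). The cluster led by Myh11 and Pln stood at 533 and 655 CPM. MuSC-like cells, the class that lost Yy1, stood at 351 CPM in Ctrl and 173 CPM in dKO, a ratio of 0.494 (0.419 to 0.579) over 140 and 41 cells. EC-like (endothelial) cells stood at 332 and 506 CPM, a ratio of 1.53 (1.38 to 1.68), and in Ctrl their counting interval overlapped that of MuSC-like cells. Monocyte/macrophage (MO/MP)-like cells stood at 121 (116 to 127) and 171 CPM (163 to 180), a ratio of 1.41 (1.32 to 1.51). Their share with a Cxcl1 UMI was 24.1% and 22.1%, or 11.9% and 12.4% when thinned (125 and 95 cells left out). The cell with the most UMIs held 3.77% and 7.75% of them. Had the FAP marker RNA counted in MO/MP-like cells carried Cxcl1 in the proportion seen in FAP-like cells, it would have given 34 CPM in Ctrl and 55.6 CPM in dKO, below the measured levels. In B cell-like cells the same sum gave 36.8 and 49.6 CPM against measured levels of 21.5 (9.28 to 42.3) and 27.1 CPM (10.9 to 55.8), so these were read as background.

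**Figure D1:**
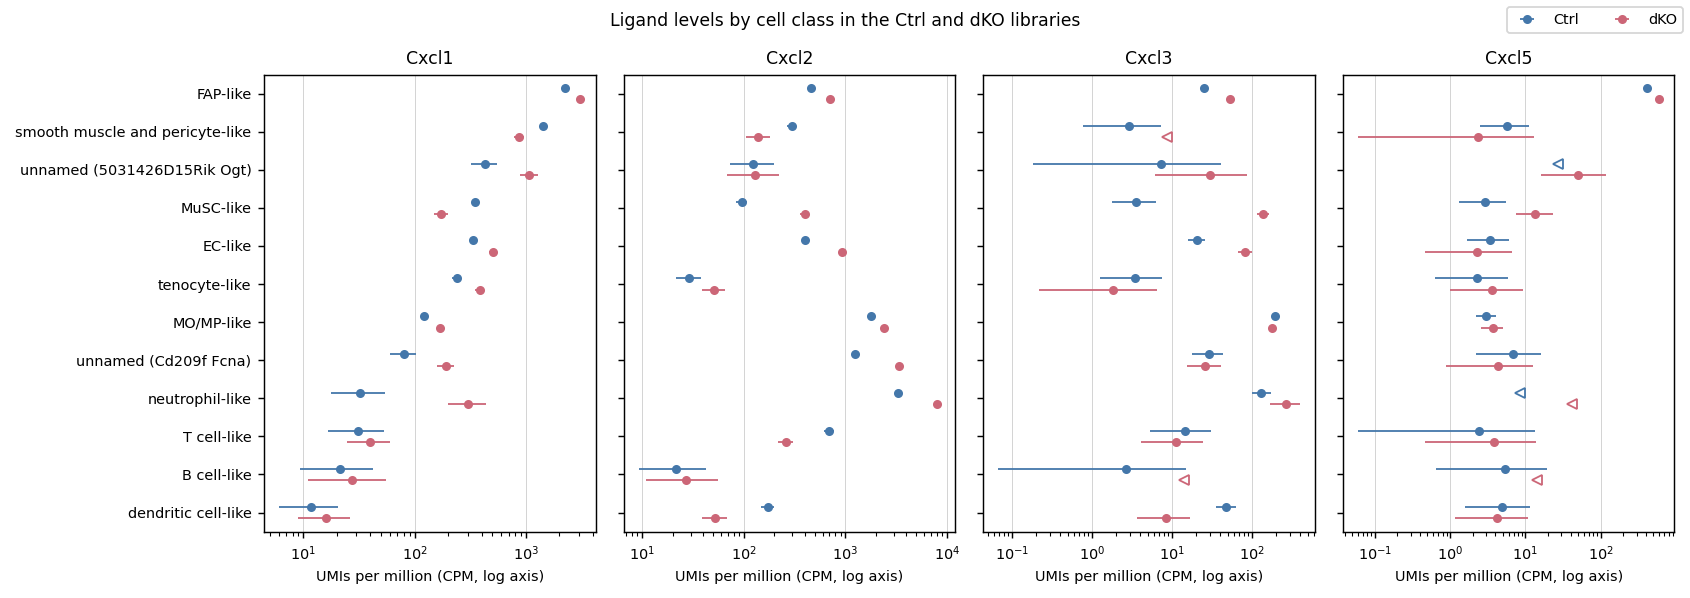
Level of each ligand in CPM (log axis) by cell class in the Ctrl and dKO library, for classes with at least 20 cells in both. Points are class totals, bars exact Poisson 95% intervals, and open triangles the upper end of that interval where no UMI was counted. Cxcl1 and Cxcl5 were highest in FAP-like cells and Cxcl2 in neutrophil-like cells, in both libraries.

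Cxcl2, encoding the ligand that activated myeloid cells make, was carried by MO/MP-like cells in the largest number. Its UMIs in this class numbered 27390 in 1451 Ctrl cells (67.3% of the library's Cxcl2) and 22566 in 1073 dKO cells (56%). Ctrl cells stood at 1790 CPM (1768 to 1811) and dKO cells at 2433 CPM (2401 to 2465), a ratio of 1.36 (1.34 to 1.38). Shares of cells with a UMI were 56.4% and 63.3%, or 45.6% and 53.2% thinned (125 and 95 cells left out), above the few percent of B cell-like cells. In this class 390 of 9197 genes (4.24%) were at least 1.5-fold higher and 393 (4.27%) at least 1.5-fold lower, with a median log2 ratio of -0.02, and none of Cxcl1, Cxcl2 and Cxcl3 passed that fold.

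FAP-like cells held the next largest part of Cxcl2, 19.1% in Ctrl and 31.1% in dKO. Ctrl cells stood at 461 CPM (451 to 472) and dKO cells at 710 CPM (698 to 723), a ratio of 1.54 (1.5 to 1.58), and 32.2% and 39.1% of cells had a UMI (17.9% and 24.2% thinned). MO/MP marker RNA counted in FAP-like cells would account for 17.4 and 36.7 CPM of these levels if it carried Cxcl2 in its own proportion. Cxcl2 and Cxcl3, described below, were the ligands of FAP-like cells past 1.5-fold, against the background of 2.94% of genes given above.

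Among whole classes, the highest Cxcl2 level was in neutrophil-like cells. The 107 Ctrl cells stood at 3279 CPM (3110 to 3454) from 1411 UMIs, and the 36 dKO cells at 8018 CPM (7443 to 8625) from 721 UMIs. The ratio was 2.45 (2.23 to 2.68), and 68.2% and 80.6% of cells had a UMI, or 44.4% of 63 and 75% of 16 cells when thinned to 2000 UMIs, with 44 and 20 shallower cells left out. In this class 159 of 694 genes (22.9%) were at least 1.5-fold higher and 102 (14.7%) at least 1.5-fold lower, wider shares than in FAP-like and MO/MP-like cells. The cell with the most UMIs held 9.99% of the Ctrl and 20.7% of the dKO count. MO/MP-like RNA carried in its own proportion would have given 885 and 792 CPM, less than measured in either library.

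EC-like cells stood at 405 CPM of Cxcl2 in Ctrl and 930 CPM in dKO, a ratio of 2.29 (2.12 to 2.48). The cell with the most UMIs held 13.3% and 18.9% of them. Shares of cells with a UMI were 23.2% and 30%, or 16.4% and 26.6% thinned (75 and 39 cells left out). Background in this class was 284 of 5661 genes (5.02%) higher and 414 (7.31%) lower by 1.5-fold. The higher level lay in the cluster with capillary genes (Gpihbp1, Car4), at 479 and 1630 CPM, a ratio of 3.4 (3.11 to 3.72), and in the cluster with Selp, Csf3 and Sele, genes of activated venous endothelium, at 151 and 326 CPM. It was lower in the cluster with Gkn3 and Gja5, genes of arteries, at 666 and 281 CPM, a ratio of 0.422. MO/MP marker RNA was itself higher in dKO EC-like cells and would give 242 and 448 CPM, and its part in the difference was not tested. T cell-like cells (693 and 259 CPM) and dendritic cell-like cells (173 and 52.1 CPM) were counted with less Cxcl2 in dKO, with 29.8% and 39.4% of the T cell-like counts in 1 cell. Carried MO/MP RNA would give 214 and 236 CPM in dendritic cell-like cells, above both measured levels, which were read as background, and 84.2 and 199 CPM in T cell-like cells. Smooth muscle and pericyte-like cells stood at 298 and 140 CPM, a ratio of 0.468 (0.350 to 0.616), where carried MO/MP RNA would give 70.9 and 146 CPM, so the dKO level was read as background. An unnamed cluster led by Cd209f and Fcna, genes of resident macrophages, stood at 1257 and 3367 CPM, a ratio of 2.68 (2.48 to 2.90). The same sum gave 2599 and 3205 CPM for this cluster. Its MO/MP marker RNA, 17971 and 16617 CPM, was above the 12376 and 12614 CPM of MO/MP-like cells. The sum therefore cannot separate carried RNA from the cluster's own. MuSC-like cells stood at 95.5 and 399 CPM, where 88.3% of the dKO UMIs were in 1 cell.

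Cxcl3, a ligand of the same family that myeloid cells make along with Cxcl2, was lower in MO/MP-like cells and higher in FAP-like cells of dKO. MO/MP-like cells held 2983 UMIs in Ctrl (79.8% of the library's Cxcl3) and 1646 in dKO (57%), or 195 CPM (188 to 202) and 177 CPM (169 to 186), a ratio of 0.911 (0.857 to 0.967). FAP-like cells held 425 and 930 UMIs (11.4% and 32.2%), or 25.2 (22.9 to 27.7) and 52.7 CPM (49.4 to 56.2), a ratio of 2.09 (1.86 to 2.35). The classes thus moved apart, while the library totals were nearly equal. The share of FAP-like cells with a Cxcl3 UMI was 6.28% and 7.14%, or 2.38% and 2.82% when thinned, and the cell with most UMIs held 12.5% and 9.89%, so the difference lay in UMIs per cell more than in the number of cells. MO/MP-like shares were 20.5% and 19%, or 13% and 12.9% when thinned. B cell-like cells had 1 and 0 Cxcl3 UMIs.

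EC-like cells had 68 Cxcl3 UMIs in Ctrl and 109 in dKO (20.6 and 83 CPM, a ratio of 4.02, 2.94 to 5.53), with 48.5% and 43.1% of them in 1 cell. Carried MO/MP RNA would give 26.4 and 32.6 CPM, so the Ctrl level was read as background. In MuSC-like cells 11 UMIs in Ctrl stood against 141 in dKO, of which 71.6% were in 1 cell. Neutrophil-like cells had 57 and 24 UMIs, 132 and 267 CPM, a ratio of 2.02 (1.20 to 3.30). These EC-like, MuSC-like and neutrophil-like values thus rested on few UMIs, and in EC-like and MuSC-like cells 1 cell held a large part of them.

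Cxcl5, encoding the ligand known from stromal and epithelial cells, was held almost whole by FAP-like cells, at 98.7% of the Ctrl and 99.3% of the dKO UMIs. They held 6884 UMIs in Ctrl and 10386 in dKO, or 409 CPM (399 to 418) and 589 CPM (578 to 600), a ratio of 1.44 (1.40 to 1.49). Cells with a UMI made up 18.2% and 22.2% of the class, 11.1% and 13% when thinned. The largest count in any cell was 390 UMIs in Ctrl and 333 in dKO, 5.67% and 3.21% of the class. MO/MP-like cells had 46 and 34 UMIs (3.01 and 3.67 CPM), below the 6.16 and 10.6 CPM that FAP marker RNA would carry, and these were read as background. Neutrophil-like cells had none in 107 and 36 cells, which allows shares of cells with a UMI of up to 2.80% and 8.33% by the limit of 3 counts of the total.

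**Figure D2:**
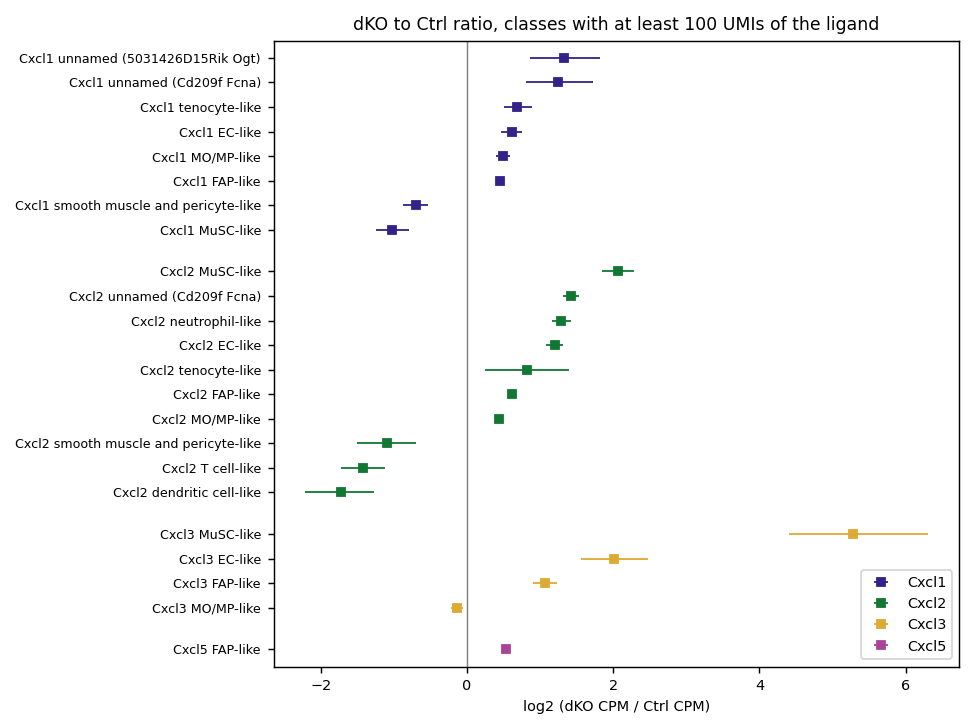
Log2 ratio of the dKO to the Ctrl level (x axis, with exact conditional binomial 95% intervals for counting error) by ligand and class. Shown are pairs with at least 100 UMIs over both libraries, in classes with at least 20 cells in both. Cxcl3 had a log2 ratio of 1.06 in FAP-like and -0.14 in MO/MP-like cells, whereas Cxcl1 and Cxcl2 were above 0 in both. In MuSC-like cells of dKO, 1 cell held 88.3% of the Cxcl2 and 71.6% of the Cxcl3 UMIs.

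FAP-like cells were divided into 9 sub-clusters to see which cells carried the ligands. Most Cxcl1 was in 3 of them, the sub-cluster with Rgcc, Plk2 and Ptx3 (27.2% of the class's Cxcl1 UMIs in Ctrl and 33.6% in dKO), that with Zfp36, Atf3, Fos and Egr1, immediate early genes (26.8% and 22.1%), and that with Hmmr and Top2a, cell cycle genes (31% and 29.1%). Their levels were 2878 and 4326 CPM, 3562 and 4250 CPM, and 3279 and 3459 CPM. The largest sub-cluster, led by G0s2 and Fibin, was low at 609 and 517 CPM. A small one led by Tenm2 and Shisa3 held 658 and 564 Cxcl1 UMIs in 13 and 9 cells, at median depths of 6109 and 6678 UMIs. The widest gap among sub-clusters with over 100 cells was in the one with Dmkn, Dpp4, Sema3c and Cd55, genes of the fascia-like progenitors of muscle, at 1109 and 2836 CPM, a ratio of 2.56 (2.40 to 2.73). It was also the sub-cluster where Cxcl2 went from 324 to 984 CPM between libraries and Cxcl5 from 21.4 to 60.9 CPM.

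Cxcl5 lay mostly in the sub-cluster with Hmmr and Top2a, whose cycling markers summed to 1049 CPM in Ctrl and 721 CPM in dKO. That grouping depended on the clustering, since with the members kept in the clustering a cluster led by Cxcl5, Il1rl1 and Inhba (262 and 315 cells) had 0 enriched cycling markers and stood apart from a cycling cluster led by Mxd3 and Hmmr (52 and 49 cells). In the Hmmr sub-cluster 70.2% of the class's Cxcl5 UMIs in Ctrl and 71.8% in dKO were counted, at 1343 and 1629 CPM, a ratio of 1.21, and 64.4% and 64.1% of those cells had a UMI. Cxcl3 in FAP-like cells was concentrated in the same sub-cluster in dKO, at 61.2% of its UMIs against 25.9% in Ctrl, from 30.5 to 124 CPM (ratio 4.07, 3.31 to 5.04), with 41.8% and 16.2% of the UMIs in 1 cell. Outside it, Cxcl3 in FAP-like cells was nearly level in the Rgcc sub-cluster (53 and 55.4 CPM) and within counting error in the Zfp36 sub-cluster (18.5 and 14.8 CPM, ratio 0.802, 0.522 to 1.23). The G0s2 sub-cluster had 19 UMIs in Ctrl and 2 in dKO, while in the Dmkn sub-cluster it stood at 11.6 and 53.8 CPM (13 and 75 UMIs, ratio 4.65, 2.56 to 9.13). The sub-cluster of Il1b, Ccl6 and Lyz2, myeloid genes, held 20 Ctrl and 33 dKO cells, 75% and 84.8% of them marked as doublets, and is not read as a state of FAPs.

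Sub-cluster sizes differed between the libraries, so each ratio was recomputed with dKO levels weighted by the sizes in Ctrl. Cxcl1 then had a ratio of 1.27 in place of 1.37, Cxcl2 1.42 in place of 1.54, Cxcl3 1.78 in place of 2.09 and Cxcl5 1.25 in place of 1.44. Each remained above 1, and the change of sizes alone, at Ctrl levels, would have given 1.07, 1.10, 1.13 and 1.17. Levels were higher in dKO in 8 of 9 sub-clusters for Cxcl1, 6 for Cxcl2, 3 for Cxcl3 and 7 for Cxcl5. These counts include the sub-cluster with myeloid genes, others of 9 to 21 cells per library, and ratios whose interval includes 1.

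**Figure D3:**
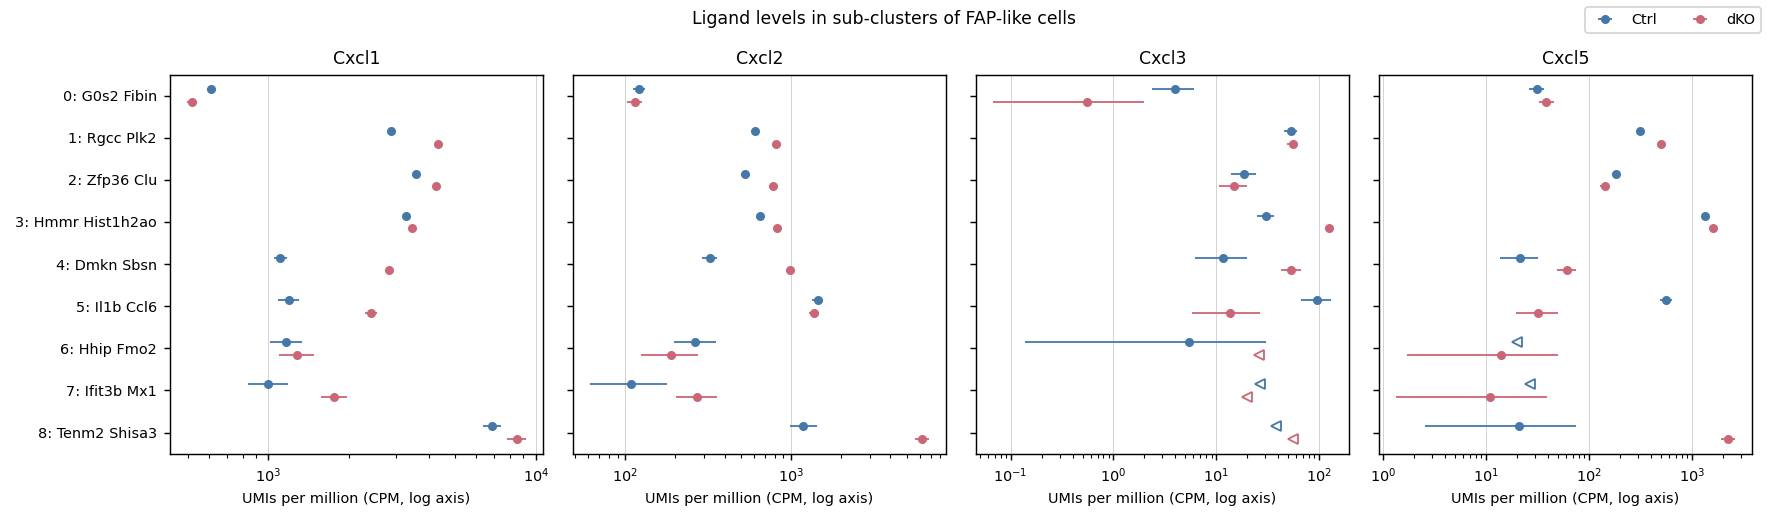
Level of each ligand in CPM (log axis) in the 9 sub-clusters of FAP-like cells, named by their 2 leading genes, in the Ctrl and dKO library. Bars are exact Poisson 95% intervals and open triangles the upper end of that interval where no UMI was counted. Cxcl5 was highest in the Hmmr sub-cluster in Ctrl, at 1343 CPM, and Cxcl1 was low in the G0s2 sub-cluster in both libraries.

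In MO/MP-like cells, 8 sub-clusters showed where Cxcl2 and Cxcl3 were made. The sub-cluster with Vcan, Slpi, Clec4e and Chil3, genes of newly arrived monocytes, held 33.1% and 37.3% of Cxcl2 and 52.6% and 55.4% of Cxcl3. There Cxcl2 was higher in dKO, at 5559 and 6601 CPM, while Cxcl3 was lower, at 961 and 715 CPM (ratio 0.744, 0.685 to 0.808), and Cxcl1 was lower, at 249 and 136 CPM. The sub-cluster with Ccrl2, Cxcl16 and Il10 stood at 2845 and 3126 CPM of Cxcl2 and at 200 and 130 CPM of Cxcl3. Interferon genes (Iigp1, Ifit3) led the sub-cluster with the widest gap, 143 and 613 CPM of Cxcl2, a ratio of 4.30 (3.83 to 4.83). Its Cxcl1, at 14.2 and 61.8 CPM, lay below the 26.8 and 82 CPM that FAP marker RNA in those cells would carry, and was read as background. With the sub-cluster sizes of Ctrl, the class ratio was 1.21 for Cxcl2, 0.811 for Cxcl3 and 1.32 for Cxcl1, and Cxcl2 was higher in 7 of 8 sub-clusters, Cxcl1 in 6 and Cxcl3 in 2. These counts include a sub-cluster with EC genes, where 68.4% and 77.8% of cells were marked as doublets and the Cxcl2 ratio of 1.01 had an interval that includes 1 (0.911 to 1.13), and for Cxcl1 the interferon sub-cluster read as background.

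**Figure D4:**
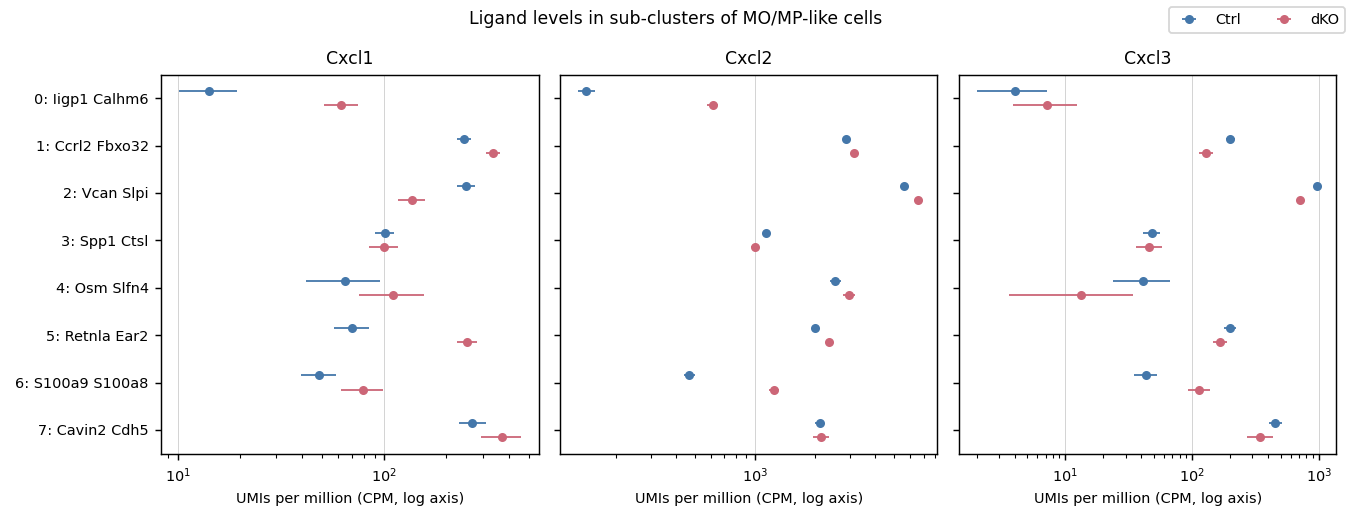
Level of Cxcl1, Cxcl2 and Cxcl3 in CPM (log axis) in the 8 sub-clusters of MO/MP-like cells, named by their 2 leading genes, with exact Poisson 95% intervals. Cxcl2 and Cxcl3 were highest in the Vcan sub-cluster in both libraries, and Cxcl3 was lower in dKO there (961 and 715 CPM).

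Which ligands shared cells was measured after thinning each cell to 2000 UMIs. Among FAP-like cells with Cxcl2, 91.8% in Ctrl and 87.6% in dKO also had Cxcl1, and among those with Cxcl5, 87.6% and 86.8% did, against 54.5% and 64.9% of all FAP-like cells. Cxcl3 and Cxcl5 shared cells more in dKO: of FAP-like cells with Cxcl3, 3 of 26 in Ctrl (11.5%) and 17 of 33 in dKO (51.5%) had Cxcl5, against 11.1% and 13% of all FAP-like cells. Unthinned, those shares were 41.4% and 61.2%. No ligand was seen in 42.5% of FAP-like cells in Ctrl and 30.8% in dKO. Of MO/MP-like cells with Cxcl3, 161 of 172 in Ctrl (93.6%) and 117 of 126 in dKO (92.9%) had Cxcl2, against 45.6% and 53.2% of the class, and 50.8% and 43% of the class had no ligand. Pairs in a cell also depend on how much RNA of each was captured, so they are given as shares and no test was run.

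Cxcr2, the receptor, was a transcript of neutrophil-like cells, which held 202 of its 263 UMIs in Ctrl (76.8%) and 56 of 85 in dKO (65.9%). Its level in this class was 460 CPM (399 to 528) in 116 Ctrl cells and 573 CPM (433 to 745) in 45 dKO cells, a ratio of 1.25 whose interval includes 1 (0.910 to 1.68). The lower library total in dKO thus came with fewer neutrophil-like cells, 2.56% of all deposited cells in Ctrl (2.12 to 3.07) and 1.29% in dKO (0.944 to 1.73), while the level within these cells was not detectably lower. Fewer neutrophils in the muscle and fewer that came through the digestion and sort cannot be told apart. The share of neutrophil-like cells with a Cxcr2 UMI was 66.4% and 51.1%, against the CPM, at median depths of 2330 and 1568 UMIs. Thinned to 1000 UMIs (7 and 6 cells left out) the shares were 45.0% (35.4 to 54.8) and 33.3% (19.1 to 50.2), which overlap, so no order was read from them. Background among the 715 genes with at least 100 UMIs in this class, all deposited cells taken, was 171 genes (23.9%) higher and 101 (14.1%) lower by 1.5-fold.

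**Figure D5:**
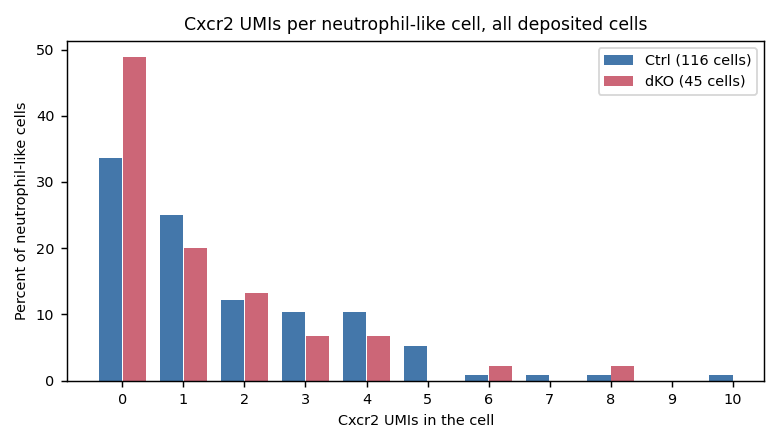
Neutrophil-like cells of the Ctrl and dKO library by their number of Cxcr2 UMIs, as the share of that library's neutrophil-like cells. In Ctrl 39 of 116 cells and in dKO 22 of 45 had none, and the highest count in a cell was 10 and 8.

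MO/MP-like cells held 45 Cxcr2 UMIs in 20 of 1530 Ctrl cells and 20 UMIs in 9 of 1148 dKO cells, at 2.93 and 2.14 CPM. Of these, 8 Ctrl and 6 dKO cells, with 24 and 14 of the UMIs, also carried at least 5 UMIs of the neutrophil genes Retnlg, Ly6g, Csf3r, Mmp9 and Il1r2, and 4 and 3 cells were marked as doublets. Cxcr2 was not seen in B cell-like or T cell-like cells, which allows shares with a UMI of up to 2.04% and 3.26% in B cell-like cells and 2.42% and 2.03% in T cell-like cells by the same limit of 3 counts. FAP-like cells had 3 UMIs in each library. Outside neutrophil-like and MO/MP-like cells, 16 Ctrl and 9 dKO UMIs were counted.

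Genes abundant in neutrophils also differed outside the neutrophil-like class. S100a8, which neutrophils hold in large amounts, stood at 72.7 CPM in Ctrl and 1.53 CPM in dKO FAP-like cells and was seen in 17.3% and 2.10% of them, with 52.9% of the Ctrl UMIs in 1 cell. MO/MP-like cells stood at 1147 and 321 CPM. The CPM was higher in dKO in EC-like cells (42.5 and 120 CPM), MuSC-like cells (14.8 and 26.3 CPM) and the Lgals7 Sfrp5 cluster (25.5 and 2046 CPM), where 86.6%, 66.7% and 99.4% of the dKO UMIs were in 1 cell. The share of cells with S100a8 was lower there too, at 9.79% and 2.69% of EC-like, 25% and 7.32% of MuSC-like and 26.3% and 15.4% of Lgals7 Sfrp5 cells. In neutrophil-like cells themselves, all deposited cells taken, S100a8 was 75588 and 43121 CPM, S100a9 101814 and 60979 CPM and Retnlg 14717 and 8878 CPM, all lower in dKO. Granule genes of the marrow stages were lower in MO/MP-like cells too, where 6 of 6 precursor genes with at least 100 UMIs were at least 1.5-fold lower, beside 4.27% of all genes measured there, Prtn3 at 161 and 3.02 CPM, Elane at 104 and 0.108 CPM and Camp at 656 and 246 CPM. The MO/MP-like class held a sub-cluster led by S100a9 and S100a8 with cell cycle genes, of 118 cells in Ctrl and 54 in dKO, whose part in these values was not tested. Of the Cxcr2 UMIs in MO/MP-like cells, the cycling cluster held 16 in Ctrl and 11 in dKO, the cluster with Slpi, Clec4e and Chil3 15 and 2, and that with Apoe and Ms4a7 12 and 6. These values stand beside the Cxcr2 counts, and the part of free RNA in them was not tested.

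Other receptors and family members were counted in the same cells. Cxcr1, a related receptor, had 5 UMIs, all in Ctrl neutrophil-like cells, and 0 in dKO. Pf4, the platelet factor 4 gene, had 1553 and 1145 CPM within the MO/MP-like class, Ppbp, a platelet chemokine gene, 12.8 and 3.56 CPM there, and Cxcl15 had 0 and 1 UMI in all. Ackr1, the decoy receptor by which venules hold chemokines, was mostly in EC-like cells (78% and 73.6% of its UMIs) and stood at 251 and 572 CPM there, a ratio of 2.28 (2.06 to 2.51). In neutrophil-like cells, 7 of the 11 measured chemotaxis genes were past 1.5-fold higher and none lower, at a median ratio of 1.56, among them Csf3r, the G-CSF receptor (437 and 922 CPM, ratio 2.11, 1.62 to 2.72), Fpr1, a formyl peptide receptor (207 and 410 CPM), and Cxcr4, the marrow-retention receptor (228 and 410 CPM). That count stands against the 23.9% of all measured genes higher there, and with cells of at least 500 genes alone it was 4 of 9.

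Of the genes that induce these ligands, Il1b was at least 1.5-fold higher in dKO in MO/MP-like, EC-like and neutrophil-like cells, while most of the list did not pass that fold in any class. In MO/MP-like cells Il1b stood at 337 and 609 CPM, a ratio of 1.81 (1.74 to 1.88), and Tnf at 58.3 and 108 CPM, 2 of the 8 measured inducer genes past 1.5-fold and none lower, at a median ratio of 1.13, beside 4.24% of all genes measured. In EC-like cells 3 of 7 were higher, beside 5.02% of genes, Il1b at 65.3 and 238 CPM, Csf3 (G-CSF, the neutrophil growth factor) at 317 and 610 CPM and Il17ra, a receptor subunit for IL-17. MO/MP marker RNA in EC-like cells was 1675 and 2320 CPM, and its part in the Il1b value was not tested. Neutrophil-like cells stood at 1270 and 3584 CPM of Il1b, a ratio of 2.82 (2.46 to 3.23), 1 of 3 measured inducers higher in a class where 23.9% of genes were. In FAP-like cells 2 of 9 measured inducers were past 1.5-fold higher, beside 2.94% of genes, Il1b and Tnf, and 1 was lower, Csf3 at 5.17 and 1.98 CPM. Il1b was 3.27 and 21.7 CPM there, but 1.70 and 1.88 CPM once the sub-cluster with myeloid genes was left out, a ratio of 1.10 (0.643 to 1.90). Tnf was 2.02 and 6.92 CPM, and 1.95 and 3.7 CPM without that sub-cluster, a ratio of 1.90 (1.22 to 3). Il1r1, the receptor through which FAPs sense IL-1, stood at 131 and 193 CPM and Il6 at 162 and 199 CPM, both under 1.5-fold.

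Genes of the NF-κB response and its feedback were higher in MO/MP-like cells, where 7 of 13 were past 1.5-fold and none lower, at a median ratio of 1.54, against the 4.24% of genes higher there. Relb, a NF-κB subunit, stood at 23.5 and 43.2 CPM, Nfkbiz, a nuclear cofactor, at 169 and 271 CPM, and Tnfaip3, the A20 feedback inhibitor, at 98.7 and 154 CPM. Nfkbia, the first inhibitor that NF-κB induces, was under that fold (499 and 744 CPM). In FAP-like cells 1 of 13 was past it, Zc3h12a at 25.5 and 39.2 CPM, with a median ratio of 1.17, beside 2.94% of all genes, and Zfp36, whose protein removes these transcripts, stood at 790 and 737 CPM. In neutrophil-like cells 4 of the 5 measured were higher, among them Nfkbiz at 280 and 942 CPM, beside the 23.9% of genes higher there. Genes that tissue dissociation induces were 16 measured in MO/MP-like cells, 4 higher and none lower (Socs3 at 66.3 and 145 CPM, Atf3 at 403 and 638 CPM), with a sum of 10459 and 13213 CPM, and their part in the higher Cxcl2 there was not tested. In FAP-like cells that sum was 30983 and 29065 CPM, lower in dKO, with 0 of 16 past 1.5-fold. It was highest in the Zfp36 sub-cluster in both libraries, at 69818 and 73532 CPM, where Cxcl1 was also high. In neutrophil-like cells 2 of 13 dissociation genes were higher, beside 23.9% of all genes there, and 4, all heat shock genes, were lower, beside 14.1%.

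Genes whose pattern over 12 cell classes and both libraries was most like that of each member were named by Pearson's r over 24 points of log2 CPM plus 1, as a description. For Cxcl1 they were Gprc5b (0.909), Maged2 (0.903) and Thra (0.897). Cxcl2 had Lasp1 (0.882), Por (0.877) and Tmbim6 (0.831), and Cxcl3 had Chil3 (0.805), Cxcl2 (0.801) and Por (0.771). Slc6a2 (0.839), Pcdh20 (0.836) and Lmx1a (0.835) were nearest to Cxcl5. For Cxcr2, over 14 classes and 28 points, they were Trem1 (0.896), Hcar2 (0.880) and Acod1 (0.856). The points share libraries and depth, and 12784 genes were searched for the ligands.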

How the data were processed

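The authors sequenced 10x Chromium libraries on an Illumina instrument and deposited raw UMI counts per gene and cell, not normalized and holding 0 mitochondrial genes. Per the submitters' processing notes, Cell Ranger 7.0.0, Seurat 4.3.0 and mm10 were used, while the matrix header names version 3.0.2. The replicate is the library, of 3 pooled mice, so no test was run. A minimum of 500 genes per cell, used for the ligands, left 4335 and 3329 cells, the same numbers that the study gives after its own filter and doublet removal. All deposited cells were integrated in Seurat 5.3.0 (R 4.3.3, 2000 variable genes, 40 dimensions, resolution 0.8, sub-clusters 30 dimensions and 0.4) without the 5 members. Names came from 19 lists with 150 marker genes (5 not in the files), needing 3 markers at 2-fold, except that 3 of Sfrp5, Lypd2, Cldn1, Krt19, Wnt6 and Stra6 among the 10 leading genes kept a cluster from being named, an exception set after clusters had been seen. Clusters whose leading genes came equally from 2 lists, or that were shallow for their library with no marker among the leading genes, also stayed unnamed. Unnamed clusters are called by leading genes. Scrublet (scanpy 1.11.5, 30 components) called 4 and 14 cells and has not worked, so the 7.5% highest scores (325 and 250 cells) were marked, and kept in the main values. Levels and intervals used scipy 1.17.1, and the ratio script was tested on simulated data. Genes were named by a fixed rule: the members, the 3 most alike genes by Pearson's r among genes with at least 100 UMIs, and 6 lists. The members and lists were chosen with earlier results of these data known. S100a8, S100a9, Retnlg and sub-cluster values were named after they were seen.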

Additional observations from a re-analysis of the deposited data

Results flagged for a closer look

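Cxcl3 differed between the libraries in opposite directions in the classes that held at least 5% of its UMIs. The log2 ratio of dKO to Ctrl was 1.06 for the FAP-like class against -0.14 for the MO/MP-like class, a difference of 1.20. It was listed because the classes moved opposite ways in the only library of each group, and the difference was not tested.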

How the results depend on the processing

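For 12 results, 100 alternatives were computed: 83 kept their value within counting error (within 1.5 times for counts of genes), 17 moved and 0 reversed. Averaging each cell's own CPM moved the log2 ratio of Cxcl1 from 0.45 to 0.57 in FAP-like and from 0.49 to 0.39 in MO/MP-like cells, of Cxcl2 from 0.62 to 0.88 in FAP-like, from 0.44 to 0.41 in MO/MP-like and from 1.29 to 0.81 in neutrophil-like cells, and of Cxcl3 in FAP-like cells from 1.06 to 0.76. Scaling to the median ratio of genes gave 0.50 for Cxcl1, 0.68 for Cxcl2 and 0.58 for Cxcl5 (0.53 in the report) in FAP-like cells. Removing marked doublets gave 0.75 for Cxcl2 in FAP-like and 1.06 in neutrophil-like cells, where leaving out the top cell gave 1.14. With no integration Cxcl2 in MO/MP-like cells was 0.51. Chosen after seeing the data, adding the Cd209f Fcna cluster gave 0.50 for Cxcl2 in MO/MP-like cells, and leaving out the sub-cluster with most doublets gave 0.59 for Cxcl5 in FAP-like cells. Lowering the count minimum to 30 UMIs raised the genes past 1.5-fold from 635 to 1187 in FAP-like (545 higher and 642 lower) and from 783 to 1455 in MO/MP-like cells (601 and 854). The causes of the shifts were not tested. Cxcr2 in neutrophil-like cells had a log2 ratio of 0.32 (-0.14 to 0.75), from 202 and 56 UMIs, so no direction was read from it. No paired analysis was possible because each group has 1 library.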
